A study of Mus musculus with 9 samples.

Results

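The cyclin-dependent kinase genes Cdk2, Cdk4, Cdk5, Cdk6, Cdk7 and Cdk9, the CDK5 activator gene Cdk5r1 and the inhibitor gene Cdkn1b were followed in mouse muscle. They were taken by gene symbol, 8 of the 55536 genes in the tables, because GW8510, the compound given, is also known as an inhibitor of cyclin-dependent kinases, CDK2 among them. The series title calls GW8510 a benzenesulfonamide and names p21-activated kinases as its partners. All 8 genes were detected in every library and all 8 passed the filter on low counts, which left 14414 genes to test.

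The mice were males of ICR, an outbred stock, in 3 groups of 3 libraries. Young vehicle mice were 2 months old (libraries 2, 3 and 4) and aged vehicle mice were 18 months old (libraries 1, 3 and 4). Aged GW8510 mice were 18 months old and had GW8510 by intraperitoneal injection at 2 mg/kg, daily for 14 days (libraries 1, 3 and 4). The solvent of GW8510 was sodium carboxymethylcellulose, and no genotype other than the stock is given. There was no young group on GW8510. The labels say muscle without naming which. Nothing in them says whether the libraries of a group come from different animals, and every p below therefore speaks only of spread between libraries, which may be technical.

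Cyclin-dependent kinases are serine and threonine kinases that are active only when bound to a regulatory subunit. CDK4 and CDK6 with D-type cyclins, and CDK2 with E- and A-type cyclins, phosphorylate the retinoblastoma protein and release E2F factors for S phase, and p27, the product of Cdkn1b, holds these kinases back. CDK5 is activated by p35, the product of Cdk5r1, and not by a cyclin, while CDK7 and CDK9 phosphorylate RNA polymerase II. Adult muscle fibres have left the cell cycle, so the cell cycle kinases in a muscle extract may come from fibres or from the other cells between them. A kinase inhibitor acts on protein, and the values below are RNA levels, which do not measure kinase activity.

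Promoter windows are shown for the 2 genes whose aged vehicle libraries all lay below the young ones, Cdk6 and Cdk2, and for Cdk4, the closest relative of Cdk6, whose groups overlapped. Each window runs from 250 bases before to 50 bases after the RefSeq start (GRCm38.p6), 5′ to 3′ on the gene's strand. RefSeq windows were found for 6 of the 8 genes, all but Cdk5 and Cdk5r1. Capitals mark matches, on either strand, to any of 4 motifs, which may overlap. The E2F motif was searched as TTTCCCGC, as TTTCGCGC, as TTTGCCGC and as TTTGGCGC. The SP1 motif was searched as GGGCGG and the TATA box as TATAAA, and the CCAAT box by those letters.
Cdk6, chr5:3343643-3343942, plus strand: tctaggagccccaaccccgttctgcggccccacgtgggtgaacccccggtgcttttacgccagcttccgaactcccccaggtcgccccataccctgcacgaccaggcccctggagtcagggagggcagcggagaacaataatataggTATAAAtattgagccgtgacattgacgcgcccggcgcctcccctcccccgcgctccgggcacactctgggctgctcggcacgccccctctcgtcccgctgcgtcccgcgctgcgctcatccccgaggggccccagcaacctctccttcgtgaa
Cdk4, chr10:127063285-127063584, plus strand: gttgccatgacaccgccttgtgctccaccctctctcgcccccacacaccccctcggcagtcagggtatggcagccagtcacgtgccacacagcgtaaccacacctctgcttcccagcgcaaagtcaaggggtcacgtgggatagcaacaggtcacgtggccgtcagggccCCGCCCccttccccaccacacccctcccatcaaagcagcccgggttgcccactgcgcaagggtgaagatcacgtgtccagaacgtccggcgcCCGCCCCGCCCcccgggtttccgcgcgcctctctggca
Cdk2, chr10:128705002-128705301, minus strand: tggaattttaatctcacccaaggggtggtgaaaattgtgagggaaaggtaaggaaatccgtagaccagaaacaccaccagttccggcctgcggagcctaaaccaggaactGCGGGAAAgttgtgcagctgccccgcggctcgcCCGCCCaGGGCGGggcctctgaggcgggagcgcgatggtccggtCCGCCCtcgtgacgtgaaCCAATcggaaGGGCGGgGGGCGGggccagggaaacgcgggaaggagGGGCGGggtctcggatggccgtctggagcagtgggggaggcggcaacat
The Cdk6 window held 1 match to TATAAA, at position 148, and no match to the other 3 motifs. Whether this match serves any of the starts given below was not tested. The Cdk4 window held 3 SP1 matches, of which the last 2 share a base, and no other match. The Cdk2 window held 1 E2F match at position 111, 6 SP1 matches and 1 CCAAT match. Among all 32851 windows of the table, 2.26% held the E2F motif, 35.7% the SP1 motif, 37.4% the CCAAT box and 13.6% the TATA box. G and C made up 66.7% of the Cdk6 window, 67% of the Cdk4 window and 64.7% of the Cdk2 window, against a median of 52.7% over all windows. Of the 6 Cdk6 transcript models in GENCODE M21, 3 start in the window shown. They are the 376-base model at position 90, the 11525-base model at position 251 and the 697-base model at position 274, counted from 1 at the 5′ end.

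Library totals ran from 21718961 to 27437969 expected counts. At that depth 3 counts, taken as the floor, equal 0.109 to 0.138 CPM (counts scaled to a common total per library, with TMM factors), a floor that covers counting error only. All 12 skeletal muscle fibre markers had counts, and together they made up 113070 to 185342 CPM in every library, so the tissue label held. Aged vehicle library 4 stood somewhat apart, with a mean correlation to its group of 0.942, against 0.956 to 0.971 in the other 8 libraries. In the bulk tissue, fewer cells of a type and less RNA per cell cannot be told apart.

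Levels were compared between genes on the deposited TPM, which are per transcript length. Cdk6 had no single place among the 8 genes, since its rank differed between the groups. In young vehicle it had the highest mean, 21.6 ± 3.87 TPM (SD, n = 3), overlapping with Cdk4 at 21.3 ± 4.13 TPM. In aged vehicle it was at 0.573 ± 0.598 TPM and on GW8510 at 0.777 ± 0.539 TPM. Both means lay between those of Cdk2, at 1.32 ± 0.235 and 1.37 ± 0.239 TPM, and of Cdk5r1. In range, Cdk6 overlapped with Cdk2 in both aged groups and with Cdk5r1 in aged vehicle. The other 7 genes had the same order of means in all 3 groups. Averaged over the 9 libraries, Cdk4 was at 23.8 ± 5.56 TPM (SD), Cdkn1b at 16.4 ± 3.37 and Cdk9 at 12.9 ± 0.977 TPM, each overlapping in range with the next. Cdk7 and Cdk5, at 5.84 ± 0.939 and 5.46 ± 0.953 TPM, lay below Cdk9 in every library and overlapped with each other. Cdk2 was lower, at 1.65 ± 0.551 TPM, and Cdk5r1 lowest of these at 0.208 ± 0.123 TPM, with no overlap between Cdk5, Cdk2 and Cdk5r1.

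**Figure D1:**
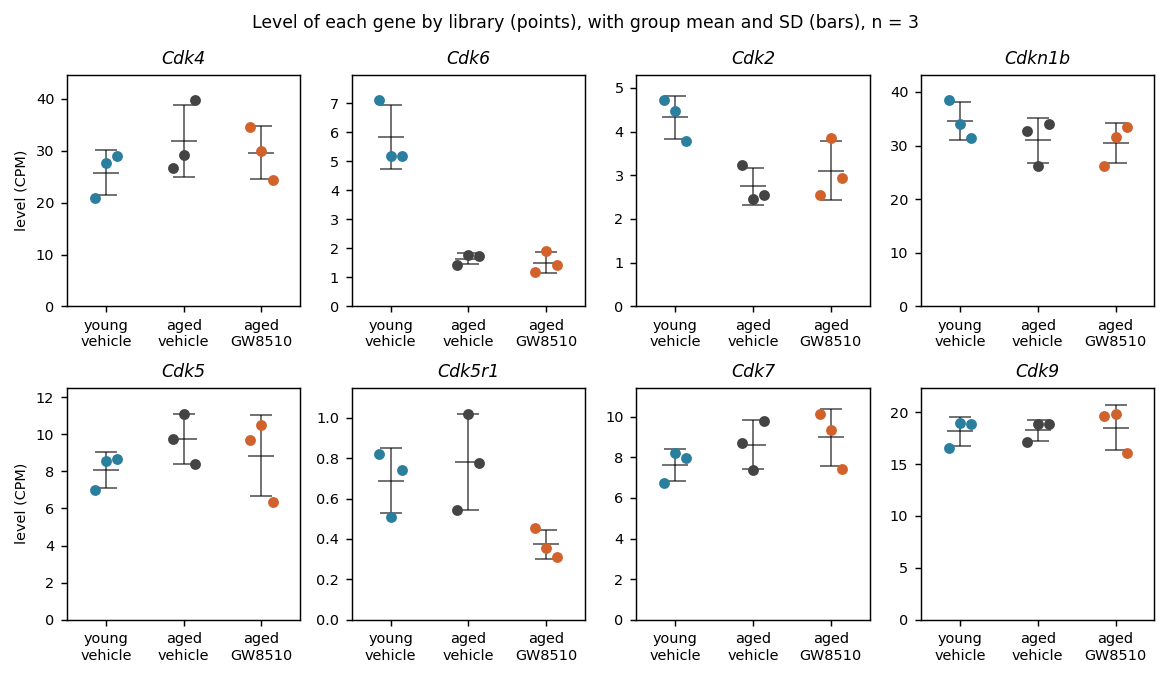
Level of each of the 8 genes in CPM (vertical axes, from 0) by group, with 1 point per library and bars for the mean and SD of 3 libraries. Cdk6 lies between 5.18 and 7.11 CPM in the young libraries and between 1.18 and 1.90 CPM in the 6 aged ones, while the groups of Cdk4, Cdk5, Cdk7, Cdk9 and Cdkn1b overlap.

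The first comparison asked which of these genes differed between 18-month and 2-month vehicle mice. Cdk6, which encodes a D-cyclin partner, fell with age, and the other 7 genes did not pass. With 1 of 8 genes called, the share over all genes tested was 1.21% in either direction and 0.694% for lower calls (edgeR, adjusted by Benjamini-Hochberg, threshold 0.05). The median log2 fold change of the 8 genes was 0.09, against 0.01 over all genes tested. Age and any other difference between the young and the aged mice cannot be told apart.

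Cdk6 (ENSMUSG00000040274, GRCm38 chromosome 5 from 3341485 to 3531008, plus strand) had 208, 123 and 133 counts in young vehicle libraries 2, 3 and 4. The aged vehicle libraries 1, 3 and 4 had 39, 43 and 40 counts. Every aged library lay below every young one, and the aged libraries lay within a few counts of each other. In CPM this was 1.64 ± 0.189 against 5.83 ± 1.11 (SD, n = 3 each), a 3.56-fold lower level with a 95% interval from 2.36 to 5.38. On the log2 scale this was -1.83 (standard error 0.27), at an edgeR adjusted p of 0.0250. The call is close to the threshold. Across the 9 fits without 1 library the adjusted p ran from 0.0270 to 0.0886, and Cdk6 passed in 6. Leaving out young library 2 ended the call (log2 fold change -1.68, edgeR adjusted p = 0.0665), as did leaving out young library 3 (-1.91, 0.0886) or aged vehicle library 1 (-1.74, 0.0721). Leaving out aged vehicle library 4 gave -1.88 (adjusted p = 0.0293). The authors' deposited table gives Cdk6 a log2 ratio of -1.82 with an adjusted p of 3.52e-06 for this pair of groups. The antisense genes Gm17590 and Gm42435, which overlap Cdk6 on the other strand, had 0 counts in all libraries.

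Cdk2 (ENSMUSG00000025358, chromosome 10 from 128697939 to 128705031, minus strand), the E- and A-cyclin partner, had 138, 106 and 97 counts in the young libraries and 89, 60 and 59 in the aged vehicle libraries. The groups did not overlap in CPM, at 2.75 ± 0.426 against 4.33 ± 0.486 (SD, n = 3 each). The log2 fold change of -0.65 (standard error 0.24, 95% interval -1.19 to -0.12) did not pass, with an edgeR adjusted p of 0.193. Cdk6 and Cdk2 were thus 2 of 8 genes with all aged libraries below all young ones, where 13.6% of all genes tested had this.

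Cdk4 (ENSMUSG00000006728, chromosome 10 from 127063534 to 127067920, plus strand), the other D-cyclin kinase, had 20.8, 27.6 and 29.0 CPM in the young and 26.8, 29.2 and 39.7 CPM in the aged vehicle libraries. The groups overlapped, and aged vehicle library 4 held the highest value. The log2 fold change was 0.31 with a 95% interval from -0.15 to 0.77, which did not pass (edgeR adjusted p = 0.435). Without aged vehicle library 4 it was 0.12. Cdk4 shares 641 bases with Tspan31 on the opposite strand, which was at 15.2 to 30.5 CPM, and whether counting used strand is not given in the sources used here. Cdkn1b (ENSMUSG00000003031, chromosome 6 from 134920401 to 134925513, plus strand) had 38.4, 34.1 and 31.4 CPM in the young and 32.8, 26.2 and 33.9 CPM in the aged vehicle libraries. The aged values lay within and below the young range, and the log2 fold change of -0.16 (95% interval -0.52 to 0.19) did not pass (edgeR adjusted p = 0.601).

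Cdk5 (ENSMUSG00000028969, chromosome 5 from 24418241 to 24423530, minus strand) was at 9.75 ± 1.36 against 8.07 ± 0.953 CPM (SD, n = 3 each), with a 95% interval of the log2 difference from -0.21 to 0.76. Its activator gene Cdk5r1 (ENSMUSG00000048895, chromosome 11 from 80477023 to 80481184, plus strand) was at 0.782 ± 0.238 against 0.689 ± 0.163 CPM, with an interval from -0.75 to 1.09. The Cdk5r1 interval is the widest of the 8 genes, and its counts were 24, 12 and 19 in the young and 15, 25 and 18 in the aged vehicle libraries. Cdk7 (ENSMUSG00000069089, chromosome 13 from 100702631 to 100730939, minus strand), the catalytic subunit of the CDK-activating kinase, was at 8.63 ± 1.20 against 7.64 ± 0.795 CPM, with an interval from -0.24 to 0.59. Its log2 difference was 0.18, and 0.08 without aged vehicle library 4. Cdk9 (ENSMUSG00000009555, chromosome 2 from 32705784 to 32713076, minus strand), the kinase of the elongation factor P-TEFb, was at 18.3 ± 1.02 against 18.1 ± 1.39 CPM. The 95% interval of its log2 difference ran from -0.31 to 0.33. Cdk9 was the steadiest of the 8 genes: its SD of log2 CPM over the 9 libraries was 0.11, and 2.16% of genes tested had a smaller one. For Cdk6 this SD was 0.95, with 91.7% of genes below it.

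**Figure D2:**
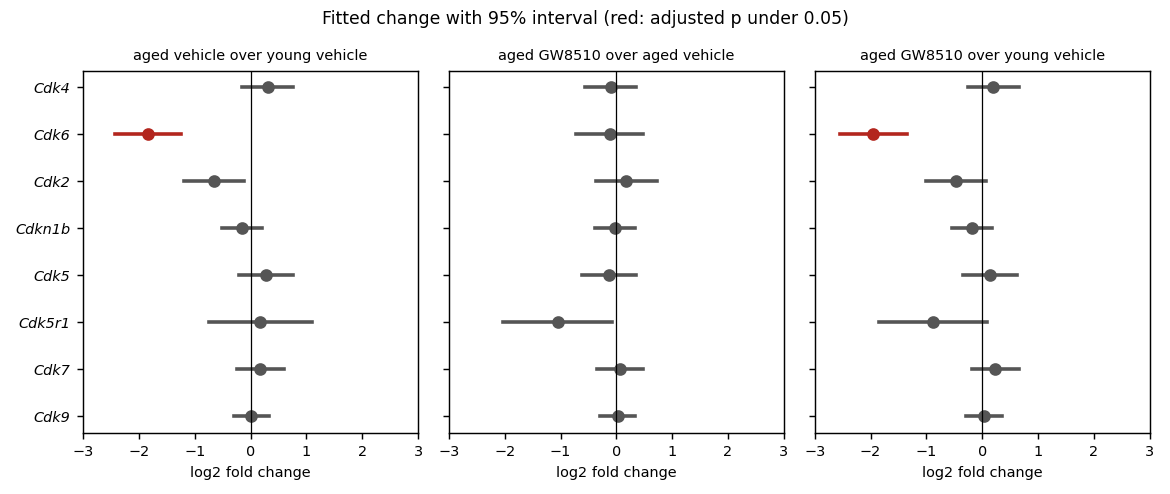
Fitted log2 fold change (horizontal axes) of the 8 genes in the 3 comparisons, with lines for 95% intervals and red for an adjusted p under 0.05. The interval of Cdk6 runs from -2.43 to -1.24 in aged over young vehicle and from -0.73 to 0.48 in GW8510 over aged vehicle.

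The fall of Cdk6 was measured together with lower markers of some other cell types. The 10 fibroblast markers summed to 1284 to 2756 CPM in the young, 146 to 598 in the aged vehicle and 311 to 663 in the aged GW8510 libraries, with no overlap between young and aged. In aged over young vehicle, 10 of 10 fibroblast markers had a negative log2 fold change, and Cd34, a surface marker shared with endothelium, passed (log2 fold change -1.06, edgeR adjusted p = 0.0472). The 9 macrophage markers summed to 56.0 to 138 CPM in the young, 42.2 to 76.8 in the aged vehicle and 50.2 to 80.5 in the aged GW8510 libraries. The 10 endothelial markers summed to 398 to 503, 279 to 378 and 318 to 550 CPM in the same order. The 9 Schwann cell and nerve markers summed to 77.8 to 110, 14.7 to 73.4 and 12.7 to 82.7 CPM. The macrophage sums overlapped between young and aged vehicle, and the endothelial and Schwann cell sums between young and aged GW8510. Satellite cells, the muscle stem cells, had their 7 markers at 88.7 to 111, 88.2 to 203 (median 91.6) and 80.7 to 89.2 CPM, overlapping in all groups. Of the markers tested, 5 of 5 erythroid and 3 of 3 neutrophil and mast cell genes had a positive log2 fold change with age. None of these passed. The 6 erythroid markers summed to 12.2 to 454 CPM in aged vehicle, with a median of 22.2 CPM. In the young the median was 91.3 CPM and the highest sum 110 CPM. The median erythroid sum was thus lower in aged vehicle, and the positive signs do not show a rise shared by its libraries. No marker of these lists was at 0 in all libraries. The part of these cell types in the Cdk6 result was not tested.

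The drop of Cdk6 was larger on the deposited TPM than in the counts. TPM of Cdk6 were 25.91, 20.63 and 18.37 in the young libraries, 1.26, 0.17 and 0.29 in the aged vehicle libraries, and 0.19, 0.89 and 1.25 in the aged GW8510 libraries. The ratio of group means, young over aged vehicle, was 37.7 on TPM. By limma on log2(TPM + 0.1), a test added after the data were seen, the difference was -5.36 on that scale (adjusted p = 0.00730).

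A count divided by its TPM gives, up to a factor for the library, the effective length the authors' quantification used for a gene, which is a mean over its transcripts less about 1 fragment length. The factor was set on 570 to 678 genes with a single GENCODE M21 transcript per library, which gave fitted fragment lengths of 255 to 285 bases. For Cdk6 this implied effective length was 338, 262 and 292 bases in the young libraries 2, 3 and 4. It was 1187, 9947 and 6825 bases in aged vehicle libraries 1, 3 and 4, and 5654, 1894 and 1160 bases in aged GW8510 libraries 1, 3 and 4. All 6 aged libraries thus lay above all 3 young ones, with a wide spread among the aged, whose values rest on 26 to 43 counts each. The 6 Cdk6 models are 376, 425, 697, 2232, 2470 and 11525 bases long. These are full lengths, while the implied values are less about 1 fragment length. The young values, though under 376 bases, therefore do not mean transcripts shorter than every model. All aged values lie above 697 bases even without that allowance. Values per transcript were not analysed here.

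The group ratio of the implied length, aged over young vehicle, was 14.6 for Cdk6, a log2 ratio of 3.87 and the highest of 14133 genes with TPM above 0 in the 6 libraries. The next was the predicted gene Gm15674, at 2.92. Over all these genes the median absolute log2 ratio was 0.0359, and 0.552% of genes had a ratio beyond 2-fold in either direction. In aged GW8510 over young vehicle Cdk6 was again the highest, at 2.97 among 14136 genes. In the other 7 genes the longest implied length over the 9 libraries was 1.06 to 2.02 times the shortest, highest in Cdk5r1 and next in Cdk4 at 1.63. For Cdk6 it was 38 times. The comparison of Cdk6 with other genes per length therefore depends on the library, while its counts do not use a length. The fold from counts was thus not adjusted for the change of implied length, whose part in that fold was not tested.

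**Figure D3:**
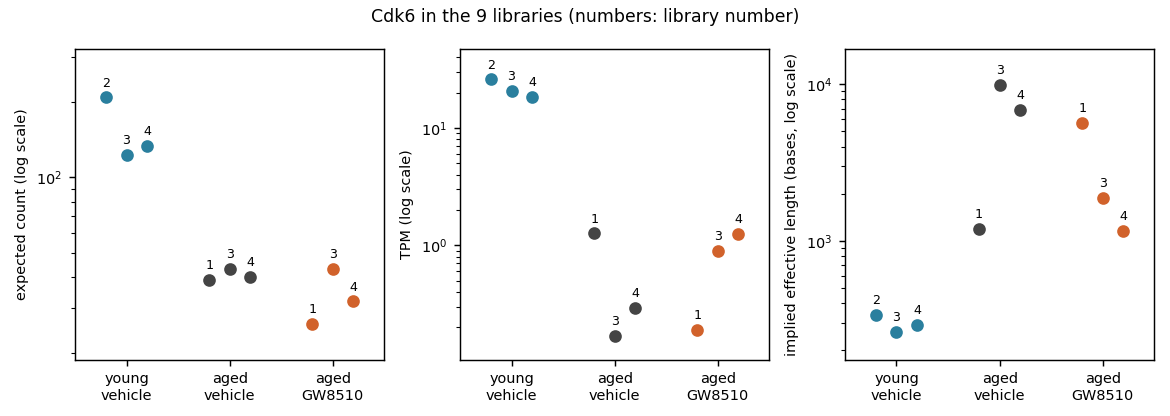
Cdk6 in each library on 3 scales, the expected count, TPM and implied effective length in bases (vertical axes, log scales), with 1 numbered point per library. Counts fall from between 123 and 208 in young to between 26 and 43 in aged libraries, TPM from at least 18.37 to at most 1.26, while the implied length is at most 338 bases in young and at least 1160 bases in aged libraries.

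**Figure D4:**
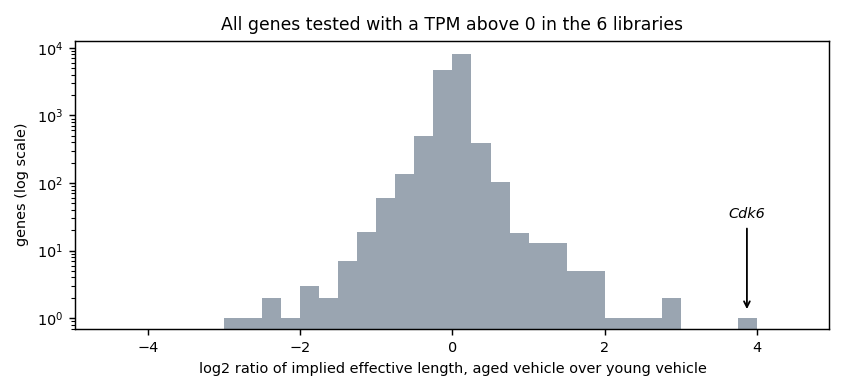
Number of genes (log scale) by log2 ratio of implied effective length, aged vehicle over young vehicle, in bins over 14133 genes. Most genes lie near 0, and the arrow marks Cdk6 at 3.87, the highest value.

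The second comparison asked what 14 days of GW8510 did to these transcripts in aged mice. None of the 8 genes passed, and the share called over all genes tested was 0% (edgeR, 0 of 14414 genes). Before adjustment, 1 of the 8 genes, Cdk5r1, had a p under 0.05, where 4.49% of all genes tested did. DESeq2 and limma-voom also called 0 of the 8 genes, and over all genes DESeq2 called 9. The median log2 fold change of the 8 genes was -0.06, against 0.01 over all genes tested.

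Cdk2, the kinase most often linked to GW8510, was at 3.11 ± 0.671 CPM on GW8510 and 2.75 ± 0.426 in aged vehicle (SD, n = 3 each). The treated libraries 1, 3 and 4 held 56, 87 and 66 counts and overlapped with the vehicle libraries. The log2 difference was 0.18, and its 95% interval from -0.36 to 0.72 leaves room for a fold between 0.777 and 1.65. Cdk6 had 26, 43 and 32 counts or 1.50 ± 0.367 CPM on GW8510, which overlapped with aged vehicle at a log2 difference of -0.12 (95% interval -0.73 to 0.48). Cdk4 was at 34.5, 29.9 and 24.4 CPM in the treated libraries, inside and below the aged vehicle range, with an interval from -0.57 to 0.35. Cdkn1b was at 26.3, 31.6 and 33.5 CPM, and its interval was -0.38 to 0.33.

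Cdk5r1 was the only one of the 8 genes whose treated libraries all lay below the aged vehicle libraries. It had 10, 8 and 7 counts on GW8510 and 15, 25 and 18 in aged vehicle, or 0.373 ± 0.0730 against 0.782 ± 0.238 CPM (SD, n = 3 each). The log2 difference was -1.06 with a standard error of 0.44 and a 95% interval from -2.03 to -0.08. It did not pass, with an edgeR unadjusted p of 0.0360 and an adjusted p of 0.935. All libraries were lower in 3.34% of genes tested. Without aged vehicle library 4 the log2 difference was -1.07. The 6 adipocyte markers summed to 255 to 369 CPM in the treated and 158 to 201 CPM in the aged vehicle libraries, without overlap, though none passed, and their part in the Cdk5r1 values was not tested.

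Cdk5 itself was at 9.71, 10.5 and 6.36 CPM in the treated libraries, with a 95% interval of the log2 difference from -0.62 to 0.34. Cdk7 was at 8.99 ± 1.41 CPM, with an interval from -0.36 to 0.47. Cdk9 was at 18.5 ± 2.16 against 18.3 ± 1.02 CPM (SD, n = 3 each), with an interval from -0.30 to 0.34. For Cdk9 the treated libraries 1, 3 and 4 were at 19.6, 19.9 and 16.0 CPM, around the aged vehicle values of 17.1, 18.8 and 18.9. The data leave room for differences inside these intervals, which do not mark what 3 libraries a group could detect. Leaving out aged vehicle library 4 moved the log2 difference of Cdk4 from -0.11 to 0.07, of Cdk5 from -0.14 to -0.25, of Cdk7 from 0.06 to 0.14 and of Cdk2 from 0.18 to 0.11. The authors' deposited table marks none of the 8 genes for this pair of groups.

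The third comparison set aged GW8510 against young vehicle, and shares the young libraries with the first and the treated libraries with the second. Cdk6 was lower, 3.87-fold (95% interval 2.56 to 5.87), at -1.95 on the log2 scale (standard error 0.27, edgeR adjusted p = 0.0152). It passed in 7 of the 9 fits without 1 library and no longer passed when young library 3 (adjusted p = 0.0546) or aged GW8510 library 1 (0.0532) was left out. Of the 8 genes, 1 was called, where 0.749% of all genes tested were called and 0.416% were called lower. In Cdk6 and Cdk5r1, 2 of the 8 genes, all treated libraries lay below all young ones, as in 12.8% of genes tested. Cdk5r1 had a log2 fold change of -0.88 (95% interval -1.85 to 0.09, edgeR adjusted p = 0.343) and Cdk2 one of -0.48 (95% interval -1.01 to 0.06, adjusted p = 0.354). The other 5 genes had log2 fold changes from -0.19 in Cdkn1b to 0.23 in Cdk7, and none passed.

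Around the kinases, 10 lists of partners, regulators and targets held 108 genes, of which 97 passed the filter. None of the 97 passed in any of the 3 comparisons by edgeR. Before adjustment, 21 had a p under 0.05 in aged over young vehicle, 3 in GW8510 over aged vehicle and 16 in GW8510 over young vehicle. These are 21.6%, 3.09% and 16.5% of the 97, where all genes tested gave 19.2%, 4.49% and 16.7%, so the lists lay near the background. Their median log2 fold changes were 0.03, -0.05 and -0.05. For age, 52 were positive and 45 negative.

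Cyclins and inhibitors bind the kinases directly. Of 6 cell cycle cyclins tested, 5 were negative with age, at a median log2 fold change of -1.15. Ccnd3, the D-type cyclin of differentiated muscle, was at 9.09, 14.2 and 6.79 CPM in aged vehicle libraries against 21.1, 26.0 and 22.0 in the young, a log2 fold change of -1.20 (standard error 0.27, edgeR adjusted p = 0.0688). In the 9 fits without 1 library the adjusted p of Ccnd3 ran from 0.0361, without aged vehicle library 3, to 0.210, and 1 passed. On GW8510 Ccnd3 was at 11.5, 18.3 and 16.3 CPM, between the other groups and overlapping with aged vehicle (log2 difference 0.62, edgeR adjusted p = 0.935, and 0.40 without aged vehicle library 4). Among 6 other CDK inhibitors, 3 were positive and 3 negative with age. Cdkn2c, which encodes the CDK4 and CDK6 inhibitor p18, was at 10.7 ± 1.70 against 6.19 ± 0.387 CPM (SD, n = 3 each), with a log2 fold change of 0.78 (edgeR adjusted p = 0.0814).

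Cdkn1a, which encodes the inhibitor p21, was at 50.4, 35.4 and 31.9 CPM in the young, 21.7, 14.6 and 43.2 in the aged vehicle, and 12.9, 9.77 and 14.9 in the aged GW8510 libraries. The treated libraries lay below all young ones and overlapped with aged vehicle by a small margin, where library 4 held the high value. Its log2 fold change was -1.08 over aged vehicle (standard error 0.36, edgeR unadjusted p = 0.0145, adjusted p = 0.935), and -0.55 without that library. It was -1.65 over young vehicle (standard error 0.37, edgeR adjusted p = 0.0702). In the 9 fits without 1 library the adjusted p of Cdkn1a there ran from 0.00904, without aged vehicle library 4, to 0.244, and 2 passed. Of 12 genes of the RB and E2F list, E2f1 had the smallest adjusted p for age, at 0.208 ± 0.0805 against 0.881 ± 0.209 CPM (log2 fold change -2.04, edgeR adjusted p = 0.138). Its aged vehicle libraries, at 0.291, 0.204 and 0.130 CPM, were at or near the floor of 0.109 to 0.138 CPM. E2f3, an E2F activator gene, was at 18.5, 19.3 and 18.8 CPM in the young, 17.9, 15.6 and 16.7 in the aged vehicle and 11.9, 9.64 and 14.3 in the aged GW8510 libraries. All treated libraries lay below all aged vehicle libraries, as in 3.34% of genes tested, and below all young ones, as in 12.8%. Of the 97 list genes, 3 and 14 had this. Neither E2f3 difference passed, with log2 fold changes of -0.48 over aged vehicle (edgeR unadjusted p = 0.0141, adjusted p = 0.935) and -0.66 over young vehicle (adjusted p = 0.0874).

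Of 15 tested E2F and S-phase targets, which serve DNA replication, 9 were negative and 6 positive with age. Mcm6, a subunit of the replicative helicase, was at 0.519 ± 0.229 against 3.47 ± 0.756 CPM (SD, n = 3 each), a log2 fold change of -2.74 (standard error 0.65, edgeR adjusted p = 0.0771). In the 9 fits without 1 library the adjusted p of Mcm6 ran from 0.0421, without aged GW8510 library 1, to 0.205, and 1 passed. Mki67, a marker of cycling cells, was at 1.40, 1.44 and 1.68 CPM in the young and 0.0454, 0.221 and 0.178 CPM in the aged GW8510 libraries, around the floor of 0.109 to 0.138 CPM (edgeR adjusted p = 0.0827). In the 9 fits without 1 library the adjusted p of Mki67 ran from 0.0138, without aged vehicle library 4, to 0.233, and 1 passed. Ccna2, the A-type cyclin of CDK2, was at 1.31 ± 0.548 CPM in the young and 0.103 ± 0.142 on GW8510, also around the floor (edgeR adjusted p = 0.0919). Cdc37, the co-chaperone that loads kinases such as CDK4 onto HSP90, was at 90.2 ± 3.38 against 139 ± 15.0 CPM with age (edgeR adjusted p = 0.0842).

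Of the CDK5 partners, 7 were tested, and the smallest adjusted p for age was 0.289, in the calpain subunit gene Capns1 (log2 difference 0.42, and 0.26 without aged vehicle library 4). Cdk5r2, which encodes p39, the relative of p35, had 1 count in 1 library and 0 in the other 8. All 9 genes of the CDK-activating kinase and of TFIIH, the factor that holds CDK7, were positive with age, at a median log2 fold change of 0.10. None passed, and the smallest adjusted p was 0.481, in Gtf2h5. For P-TEFb and its regulators, 7 of 15 were positive and 8 negative with age, with a median of -0.07, and Ell, an elongation factor gene, had the smallest adjusted p at 0.222. Among 12 other CDK genes tested, 6 were positive and 6 negative. Cdk18 was at 7.05 ± 0.595 against 4.49 ± 0.664 CPM with age and at 7.75 ± 1.14 on GW8510 (edgeR adjusted p = 0.130 and 0.0874 over young). Ccni, among 8 other cyclins, was at 78.2 ± 11.5 against 55.8 ± 3.39 CPM with age (edgeR adjusted p = 0.142).

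In GW8510 over aged vehicle, the smallest edgeR adjusted p was 0.935 in each of the 10 lists, and up to 6 genes of a list shared it. Of genes that shared it, the one with the smallest unadjusted p is named, a choice made after the data were seen. Beside Ccnd3, Cdkn1a and E2f3, positive log2 differences were those of Mcm6 at 0.89, Cables1, which encodes an adaptor of CDK5, at 0.75, and Cdc25b, a phosphatase gene that activates CDKs, at 0.65. Without 1 library these ran from -0.29 to 1.29 in Mcm6, from 0.53 to 0.89 in Cables1 and from 0.31 to 0.83 in Cdc25b. For Mcm6 the treated libraries 1, 3 and 4 were at 2.04, 0.531 and 0.311 CPM. The negative values were nearer 0 without aged vehicle library 4. Aff4, a scaffold of the super elongation complex, was at -0.36, and -0.08 without that library. The CDK12 and CDK13 partner Ccnk was at -0.28 (-0.09 without it), the TFIIH subunit gene Gtf2h1 at -0.26 (-0.16) and Cdk11b at -0.20 (-0.09). In GW8510 over young vehicle, Cables1 was at 0.88 (edgeR adjusted p = 0.247) and Mnat1, the assembly factor of the CDK-activating kinase, at 0.34 (adjusted p = 0.346). Mepce, which caps the 7SK RNA, was at 0.31 (edgeR adjusted p = 0.362), Ccni at 0.42 (0.198) and Cdc37 at -0.40 (0.234).

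**Figure D5:**
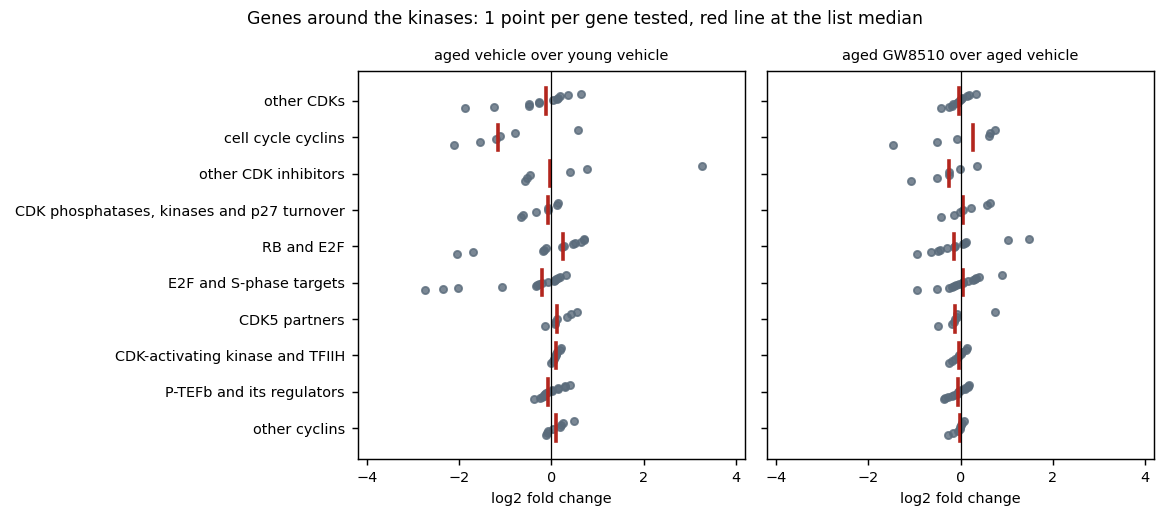
Log2 fold change (horizontal axes) of the 97 genes tested in the 10 lists around the kinases, aged over young vehicle and GW8510 over aged vehicle, with 1 point per gene and a red line at each list's median. The cell cycle cyclins have a median of -1.15 with age, and no gene in the plot passed the adjusted threshold.

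Genes most like each of the more variable kinase genes were found by the root mean square difference of centred log2 CPM over the 9 libraries, among 11605 protein-coding genes with a mean of at least 1 CPM. For Cdk6 they were Fosl2, which encodes an AP-1 component, at 0.25, Xaf1 at 0.29 and Wsb1 at 0.30. Fosl2, chosen for this likeness, was at 37.6, 11.9 and 10.3 CPM in young vehicle, aged vehicle and aged GW8510, the pattern of Cdk6 at a higher level. For Cdk2 they were Ero1l, an oxidoreductase gene of the endoplasmic reticulum, at 0.14, the anaphase-promoting complex gene Cdc23 at 0.15, and the Src-inhibiting kinase gene Csk at 0.15. For Cdk5r1 they were Kctd7 at 0.26, Maged2 at 0.28 and Tmem117 at 0.29. These likenesses describe the 9 libraries and share their depth and scaling.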

How the data were processed

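Tables for the 3 pairs of groups, covering 9 muscle libraries, were used. The expected counts are as deposited, not normalized, and 91.4% of them are whole numbers. The TPM per library also come from the deposited tables. The authors' own comparison, a fold ratio, its log2 value and raw and adjusted p-values, was deposited beside them. GRCm38, CASAVA, HISAT2, StringTie, RSEM, DESeq2 and edgeR appear in the submitters' processing notes. Versions, roles, annotation and use of strand are not given in the sources used here. Positions and transcript models are from GENCODE M21, which holds all 55536 gene IDs.

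Counts were rounded, filtered with filterByExpr by group and scaled by TMM. The main test was the two-sided quasi-likelihood F test of edgeR 4.0.16 (R 4.3.3), with the 9 libraries in 1 fit, 1 mean per group, and Benjamini-Hochberg adjustment over 14414 genes (threshold 0.05). The common dispersion was 0.0814. Standard errors were derived from F and the fitted log2 difference, and 95% intervals from the moderated degrees of freedom. Levels are CPM on TMM-scaled totals, as mean ± SD. The fit was also run on counts simulated with dispersions estimated from these data, which cannot show whether the model suits the real counts. Alternatives were DESeq2 size factors in place of TMM, no filter, DESeq2 1.42.0, limma-voom (limma 3.58.1), only the 6 libraries compared, the replicate number as a block, each library left out, and, added after the data were seen, limma on TPM with a pseudocount of 0.1.

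The implied effective length was calculated after the gap between counts and TPM of Cdk6 had been seen, with genes of at least 200 counts as calibration. Named are the 8 genes, the gene of each list with the smallest adjusted p in a comparison (ties broken by the unadjusted p, added after the data were seen), and the 3 genes most like each of the 8 whose SD was above that of the median gene. Other genes named, such as Cdk5r2, Cd34 and Gm15674, were chosen after their values were seen. The 8 genes, the lists and the tests were chosen with earlier results of these data known.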

Additional observations from a re-analysis of the deposited data

How the results depend on the processing

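The lower Cdk6 level in both aged groups against young vehicle kept its direction in every fit run, and its call in all but the fits named here and in the report. With the replicate block the Cdk6 log2 fold change was -1.54 in aged vehicle over young (adjusted p = 0.191) and -1.68 in GW8510 over young (adjusted p = 0.128), so 0 of the 8 genes were called in either. Correlations of deviations between libraries with the same number ran from -0.211 to 0.139, and between libraries with different numbers from -0.229 to 0.271. Taken over all genes, they cannot tell whether the numbers mark a pairing that affects some genes. The labels do not say that the numbers pair libraries. Over all genes the block called 5, 0 and 10 genes in aged over young vehicle, GW8510 over aged vehicle and GW8510 over young vehicle, against 175, 0 and 108. In the same order, no filter called 699, 5 and 554 genes and DESeq2 called 943, 9 and 798. The fit of only the 6 libraries called 50, 0 and 469, and limma on TPM called 131, 0 and 172. Without 1 library the counts ran from 19 to 148, from 0 to 2 and from 25 to 594, the last without aged vehicle library 4. The 8 genes gave 0 to 1 calls without 1 library in both comparisons with young vehicle, and 0 in the treatment comparison in every fit.

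None of the 97 tested genes around the kinases had been called. The alternatives test other numbers of the 108 listed genes, and Ccnb2, which the count filter left out, is not among the 97. No filter, with 108 tested, called 4 for age (Ccnd3, Mcm6, Ccnd1 and Cdkn2a) and 5 in GW8510 over young (Cdkn1a, Mki67, Ccna2, Ccnb2 and Top2a). DESeq2 called 8 and 7. Limma on TPM called 3 (Cdk1, Cdc37 and Mcm6) and 2 (Cdk1 and Top2a). The 6 libraries alone called 3 of 95 in GW8510 over young, Cdkn1a, Mki67 and Top2a. Without 1 library it was 0 to 1 for age and 0 to 4 for GW8510 over young, where the 4 without aged vehicle library 4 were Cdkn1a, Mki67, Top2a and Ccnb2. The cause of these differences was not tested. Over all genes, no filter called 699 of 25734 for age and 554 of 25734 in GW8510 over young. DESeq2 called 943 of 15852 and 798 of 16321, and limma on TPM 131 and 172 of 14414. In GW8510 over young, the 6 libraries alone called 469 of 14010, and the fit without aged vehicle library 4 called 594 of 14842. Whether the lists held more calls than all genes was not tested.

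No log2 difference that changed sign had been called. For age, Cdk5r1 was -0.07 on TPM and -0.06 to 0.38 without 1 library, and Cdk9 was -0.0019 with no filter, -0.05 with the replicate block, -0.06 on TPM and -0.06 to 0.06 without 1 library. In GW8510 over aged vehicle, Cdk6 was 0.48, Cdk7 -0.18 and Cdk9 -0.06 on TPM. Without 1 library in that comparison, Cdk2 was -0.0068 to 0.31, Cdk4 -0.23 to 0.07, Cdk5 -0.28 to 0.04, Cdk6 -0.33 to 0.02, Cdk7 -0.04 to 0.16, Cdk9 -0.04 to 0.10 and Cdkn1b -0.13 to 0.07. In GW8510 over young, Cdk5 was -0.04 with the replicate block, -0.13 on TPM and -0.0041 to 0.31 without 1 library. Cdk9 there was -0.04 with the replicate block, -0.12 on TPM and -0.05 to 0.11 without 1 library. The group with the highest mean was the same on CPM as on TPM for 5 of the 8 genes, and differed for Cdk5r1, Cdk7 and Cdk9. Depth limits Cdk5r1 most, with 7 to 25 counts per library.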
